A study of Mus musculus with 10 samples.

Results

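The response to calorie restriction common to cells sorted on reporters of active and reserve stem cells of the mouse intestine was measured over 5 paired isolations. All 10 libraries of the series were used, each from 1 animal: 5 from mice under calorie restriction (CR) and 5 from mice fed ad libitum (AL). Isolations 1 to 3 each held 1 AL and 1 CR mouse carrying Lgr5-EGFP-IRES-CreER, in which a fluorescent protein marks cells with an active Lgr5 locus (Lgr5 AL, n = 3, and Lgr5 CR, n = 3). Isolations 4 and 5 each held 1 AL and 1 CR mouse carrying Hopx-CreER::LSL-tdTomato, in which a recombinase driven by Hopx turns on a red fluorescent protein (Hopx AL, n = 2, and Hopx CR, n = 2). All mice were C57Bl/6, and every library comes from cells that were sorted on these reporters. The sources used here do not give age, sex, the length and depth of the restriction, or the schedule of recombinase induction. A gene was counted as part of the common response when it passed the test for a single diet effect over all 5 isolations and had the same sign in each of them. Of 30295 gene rows 15839 were tested, and 47 met this rule, 44 of them higher under CR (0.278% of genes tested) and 3 lower (0.0189%).

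Stem cells at the base of the intestinal crypt renew the epithelium. Lgr5 marks the dividing stem cells, and Hopx has been used to mark slowly dividing cells that can restore them after injury. Their absorptive daughters, the enterocytes, move onto the villus, where they digest and take up nutrients, pack dietary fat into lipoproteins, burn fatty acids, and oxidise, conjugate and pump out foreign compounds. Calorie restriction lowers food intake without malnutrition and is known to alter stem cell number and signalling from neighbouring Paneth cells in this tissue.

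Depth ran from 20.3 to 87.2 M estimated counts per library. Levels below are CPM, counts scaled to a fixed library total after TMM, a correction for library composition. CPM compares 1 gene between libraries, and levels of different genes are compared only as TPM, transcript abundance corrected for transcript length. Fold changes are log2 values of CR against AL, fitted with the isolation as a block. Adjusted p-values come from edgeR's quasi-likelihood test over all genes tested. Lgr5 mRNA was present in every library, at 70 to 269.9 CPM, and its fitted diet effect of 0.54 did not pass (adjusted p = 0.404). Hopx mRNA was at 81.9 to 154 CPM, with a diet effect of 0.09 (adjusted p = 0.770). Eif2s3y, a Y-linked gene, was at 14.5 TPM in the AL and 0.125 TPM in the CR library of isolation 4, so these animals differed in it as well as in diet. In each of the other isolations both animals were either near 0 or well above it. In bulk samples of this kind, a change in the number of cells of a type and a change in RNA per cell cannot be told apart.

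Promoter sequences are shown for the genes with the largest fold changes in each direction among those found in the RefSeq promoter table, to show which short motifs stand near their start sites. Pcyox1l, which fell, was not matched there. Each is the RefSeq sequence on build GRCm38.p6 from 250 bases before to 50 bases after the start, written 5′ to 3′. Capitals mark matches, on either strand, to the motifs named after the sequences. Mfsd7c is the deposited symbol of the gene that RefSeq lists as Flvcr2. The first 4 belong to genes that rose, and the last pair to genes that fell.
Abca1, chr4:53159846-53160145, minus strand: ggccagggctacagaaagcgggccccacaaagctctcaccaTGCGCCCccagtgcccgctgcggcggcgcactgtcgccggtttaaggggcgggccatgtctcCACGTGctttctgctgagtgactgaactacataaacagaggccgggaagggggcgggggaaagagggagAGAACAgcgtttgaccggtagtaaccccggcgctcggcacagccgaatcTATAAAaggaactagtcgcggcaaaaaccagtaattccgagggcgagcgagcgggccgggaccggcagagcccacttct
Mfsd7c (Flvcr2), chr12:85746289-85746588, plus strand: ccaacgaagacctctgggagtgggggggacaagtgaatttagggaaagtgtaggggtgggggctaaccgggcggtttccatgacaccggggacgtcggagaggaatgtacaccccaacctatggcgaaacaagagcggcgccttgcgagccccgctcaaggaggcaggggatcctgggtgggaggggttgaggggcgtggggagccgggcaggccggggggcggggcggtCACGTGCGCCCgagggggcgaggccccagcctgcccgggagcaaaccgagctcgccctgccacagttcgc
Abcb1a, chr5:8566841-8567140, plus strand: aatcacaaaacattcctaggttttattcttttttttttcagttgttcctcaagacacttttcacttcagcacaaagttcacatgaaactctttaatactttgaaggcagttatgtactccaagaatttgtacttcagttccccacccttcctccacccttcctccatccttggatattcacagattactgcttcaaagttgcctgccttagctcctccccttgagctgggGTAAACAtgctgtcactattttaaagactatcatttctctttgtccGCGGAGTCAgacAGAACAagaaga
Cyp2c66, chr19:39113648-39113947, plus strand: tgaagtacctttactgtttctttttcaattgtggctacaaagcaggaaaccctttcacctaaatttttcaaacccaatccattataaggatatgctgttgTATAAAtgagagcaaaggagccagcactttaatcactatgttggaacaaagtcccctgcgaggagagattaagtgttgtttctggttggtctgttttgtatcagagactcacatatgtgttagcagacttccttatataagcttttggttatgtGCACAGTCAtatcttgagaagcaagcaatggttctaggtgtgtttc
Mptx1, chr1:174330268-174330567, plus strand: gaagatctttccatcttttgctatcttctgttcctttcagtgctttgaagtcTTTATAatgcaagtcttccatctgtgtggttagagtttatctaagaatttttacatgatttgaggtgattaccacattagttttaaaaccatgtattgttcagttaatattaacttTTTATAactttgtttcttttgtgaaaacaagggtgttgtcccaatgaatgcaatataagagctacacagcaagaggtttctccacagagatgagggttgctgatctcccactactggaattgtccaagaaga
Mettl8, chr2:71055557-71055856, minus strand: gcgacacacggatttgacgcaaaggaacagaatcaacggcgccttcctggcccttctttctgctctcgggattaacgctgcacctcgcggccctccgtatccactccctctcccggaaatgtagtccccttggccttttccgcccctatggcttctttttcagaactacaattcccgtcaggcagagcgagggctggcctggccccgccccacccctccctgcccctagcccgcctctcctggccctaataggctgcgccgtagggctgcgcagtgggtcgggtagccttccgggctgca

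The capitals in these promoters are metal response elements (TGCACNC or TGCGCNC) in Abca1 and Mfsd7c, the CACGTG E-box in the same 2 genes, and the glucocorticoid receptor motif AGAACA in Abca1 and Abcb1a. They are also the FOXO motif TGTTTAC in Abcb1a, the antioxidant response element TGACNNNGC in Abcb1a and Cyp2c66, and the TATA box letters TATAAA in Abca1, Cyp2c66 and Mptx1. In Mptx1 the letters TATAAA stand on the opposite strand. No match was judged by its distance from the start, so these letters need not be working TATA boxes. The E-box and the metal response element overlap in Mfsd7c, so a single run of capitals covers both. Mettl8 held none of the motifs searched.

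Of the 44 genes that rose, 41 had a promoter in the RefSeq table, with Mfsd7b and Mfsd7c found there as Flvcr1 and Flvcr2. A metal response element stood in 18 of the 41 (43.9%), against 25.6% of all 27025 promoters of this length. An antioxidant response element stood in 9 (22.0%, against 12.5%) and the CACGTG E-box in 6 (14.6%, against 7.24%). The nuclear receptor motif AGGTCA stood in 3 (7.32%, against 16.0%), AGAACA in 7 (17.1%, against 19.0%) and TATAAA in 7 (17.1%, against 14.2%). These are matches of letters within 300 bases, not measured binding, and no difference in share was tested.

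Among the genes that rose were ones known for drug export and conjugation, cytochrome P450 oxidation, fat and retinoid metabolism, and brush border digestion and transport. The 31 lists of pathways and cell types held 18 of the 47 genes and 29 were in none, so these roles describe single genes and not the set as a whole. The higher genes' median log2 fold change was 1.12, which is a 2.18-fold rise, and the fitted values ran from 0.70 in Gna13 to 3.16 in Abca1. Taken isolation by isolation, the median difference of the 44 genes was 1.17, 0.92, 1.51, 1.00 and 1.17, against medians of all genes within 0.04 of 0. Isolation 3 held the largest difference for 24 of the 47 genes, and isolations 4 and 2 held the smallest for 18 and 15. The AL library of isolation 3 was the shallowest of the series, at 20.3 M estimated counts against 78.3 M in its CR library. The part of depth in these differences was not tested. A total of 28 genes rose at least 2-fold by the fitted value. In 37 of the 44 the 5 CR libraries all lay above the 5 AL libraries, a pattern found in 1.61% of genes tested.

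**Figure D1:**
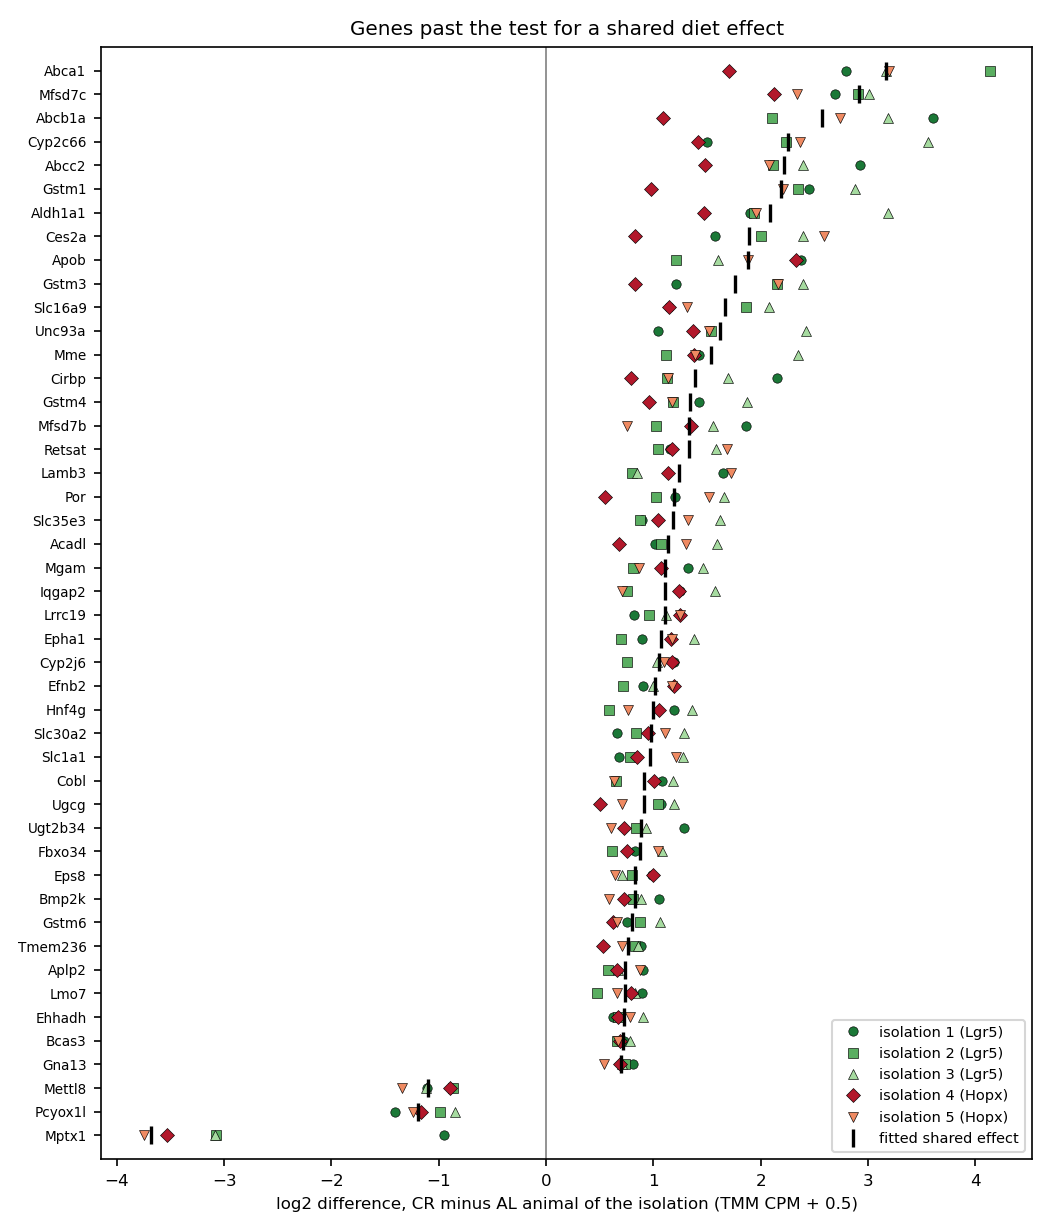
Log2 difference between the CR and the AL animal of each isolation (x axis, on CPM + 0.5) for the genes that passed and are reported here (y axis), with 1 marker per isolation and a black bar for the fitted common effect. All 5 markers of a gene lie on one side of 0, as the rule for choosing them requires, and isolation 3 holds the largest difference for 24 of them.

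Several genes that rose act in pumping out and conjugating foreign compounds. Abcb1a encodes P-glycoprotein, the drug exporter of the apical membrane. In AL libraries of isolations 1 to 5 it stood at 33.3, 30.3, 26.9, 92.2 and 30.4 CPM, and in the CR libraries at 411, 132, 249.7, 197 and 205 CPM. The groups did not overlap, and the AL library of isolation 4 was the highest of the AL libraries. The fitted change was 2.57 (SE 0.355, adjusted p = 0.0458). Abcc2, which exports glutathione and glucuronide conjugates, stood at 35.9, 24.5, 29.6, 43.3 and 19.5 CPM under AL and at 277, 107, 157, 121 and 83.7 CPM under CR. It rose by 2.22 (SE 0.202, adjusted p = 0.0233) with no overlap. Of the 12 tested members of the list of ABC and SLC drug transporters, these 2 passed, and the list's median was 0.71. In all 5 isolations 6 (50%) were higher and none lower, against 8.71% and 7.66% of all genes tested. The list counts below stand beside the same 2 shares. These counts, here and below, include the genes that passed, whose 1 sign in all 5 isolations is set by the rule.

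Glutathione transferases of the mu class, which join glutathione to reactive compounds, rose as well. Gstm1 stood at 137, 142, 86.5, 412 and 128 CPM under AL and at 748, 724, 639, 810.3 and 594 CPM under CR. Again the AL library of isolation 4 was highest within its diet, and the groups did not overlap. Gstm1 rose by 2.19 (SE 0.264, adjusted p = 0.0393). Gstm3 rose by 1.76 (238 ± 142 to 708 ± 146 CPM, SD, n = 5, adjusted p = 0.0488), Gstm4 by 1.34 (19.9 ± 6.85 to 48.6 ± 6.43 CPM, adjusted p = 0.0393) and Gstm6 by 0.80 (38.5 ± 9.19 to 66.3 ± 9.98 CPM, adjusted p = 0.0458). The relatives Gstm2 (0.24, adjusted p = 0.446), Gstm5 (-0.14, adjusted p = 0.568) and Gstm7 (0.34, adjusted p = 0.322) did not pass. Members of this family are close in sequence and may share reads, so the values of single members are uncertain.

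Ugt2b34, a glucuronosyltransferase, rose by 0.88 (201 ± 41.2 to 373 ± 94.1 CPM, adjusted p = 0.0494), and of the genes that passed it lay nearest the threshold. Tha1, a threonine aldolase, lay just outside it (adjusted p = 0.0516). Over the list of glutathione transferases, UDP-glucuronosyltransferases and sulfation genes, 5 of 35 passed, all higher, 17 were higher in all 5 isolations and none was lower in all 5 (median 0.79). Ces2a, a carboxylesterase that cleaves ester drugs, rose by 1.89 (136 ± 65.5 to 462 ± 52.7 CPM, adjusted p = 0.0458). It also belongs to a family of close copies.

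The cytochrome P450 enzymes oxidise fatty acids, steroids and drugs, and Por is the reductase that passes them electrons. Cyp2c66 stood at 15.8, 9, 3.45, 16.3 and 8.65 CPM under AL and at 45.6, 44.3, 46, 44.4 and 46.8 CPM under CR. The CR libraries lay within a narrow band while the AL libraries were spread widely, and the groups did not overlap. Cyp2c66 rose by 2.26 (SE 0.328, adjusted p = 0.0488). Cyp2j6 rose by 1.06 (87.8 ± 14.1 to 185 ± 44.8 CPM, adjusted p = 0.0339), with differences of 0.76 to 1.20 in the 5 isolations. Por rose by 1.19 (176 ± 69.9 to 385 ± 81.5 CPM, adjusted p = 0.0489).

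Several P450 genes had larger fold changes than these and missed the threshold. Cyp2c29 differed by 4.84 (1.76 ± 1.62 to 45.6 ± 28 CPM, adjusted p = 0.0812) and Cyp2c55 by 3.77 (19.7 ± 22.6 to 184 ± 62.8 CPM, adjusted p = 0.0549). Cyp3a11, a major drug-oxidising enzyme, differed by 2.71 (313 ± 205 to 1768 ± 508 CPM, adjusted p = 0.0715). Each of the 3 was at least 2-fold higher under CR in all 5 isolations. Of the 23 tested members of the P450 list, 3 passed, 13 were higher in all 5 isolations and none was lower in all 5 (median 1.06).

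Genes of fat handling rose in several steps of the pathway. Abca1 loads cholesterol and phospholipid onto apolipoprotein A-I and had the largest fold change of the genes that rose. It stood at 7.49, 1.11, 4.06, 8.40 and 3.31 CPM under AL and at 55.1, 27.8, 40.5, 28.5 and 34.3 CPM under CR. The lowest CR library was above the highest AL library, and the change was 3.16 (SE 0.381, adjusted p = 0.0393). Apob, the structural protein of chylomicrons, stood at 273, 177, 197, 133 and 206 CPM under AL and at 1418, 411, 599.7, 666 and 761 CPM under CR. It rose by 1.88 (SE 0.196, adjusted p = 0.0339), with the CR library of isolation 1 standing highest. Of 19 lipid absorption genes, Apob alone passed, 9 were higher in all 5 isolations and none lower in all 5 (median 0.85).

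Acadl, a mitochondrial acyl-CoA dehydrogenase, rose by 1.13 (136 ± 43.9 to 291 ± 44.2 CPM, adjusted p = 0.0458). Ehhadh, an enzyme of peroxisomal beta-oxidation, rose by 0.73 (114 ± 14.1 to 189 ± 15.6 CPM, adjusted p = 0.0458), with differences of 0.62 to 0.91.

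Of the 42 tested genes of fatty acid oxidation and PPAR alpha targets, Acadl and Ehhadh passed, 23 were higher in all 5 isolations and none was lower in all 5 (median 0.52). The peroxisomal thiolase Acaa1b differed by 2.51 (adjusted p = 0.0570), the acyl-CoA thioesterase Acot1 by 1.22 (adjusted p = 0.0692) and Cpt1a, which admits fatty acids to mitochondria, by 0.78 (adjusted p = 0.0837).

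Ugcg, which makes glucosylceramide, rose by 0.91 (62.7 ± 14.4 to 117 ± 21.9 CPM, adjusted p = 0.0488). Slc16a9, a member of the monocarboxylate transporter family, rose by 1.67 from low levels (3.96 ± 3.12 to 12.4 ± 7.93 CPM, adjusted p = 0.0458), and its groups overlapped. The retinoid enzymes Aldh1a1 and Retsat rose too. Aldh1a1, which oxidises retinaldehyde to retinoic acid, stood at 83.2, 40.2, 18.2, 107 and 45.7 CPM under AL and at 312, 156, 169, 298 and 179 CPM under CR. It rose by 2.09 (SE 0.238, adjusted p = 0.0393) with no overlap, and the difference in isolation 3 stood apart from the others. Retsat, retinol saturase, rose by 1.33 (134 ± 36.1 to 332 ± 60.7 CPM, adjusted p = 0.0339).

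**Figure D2:**
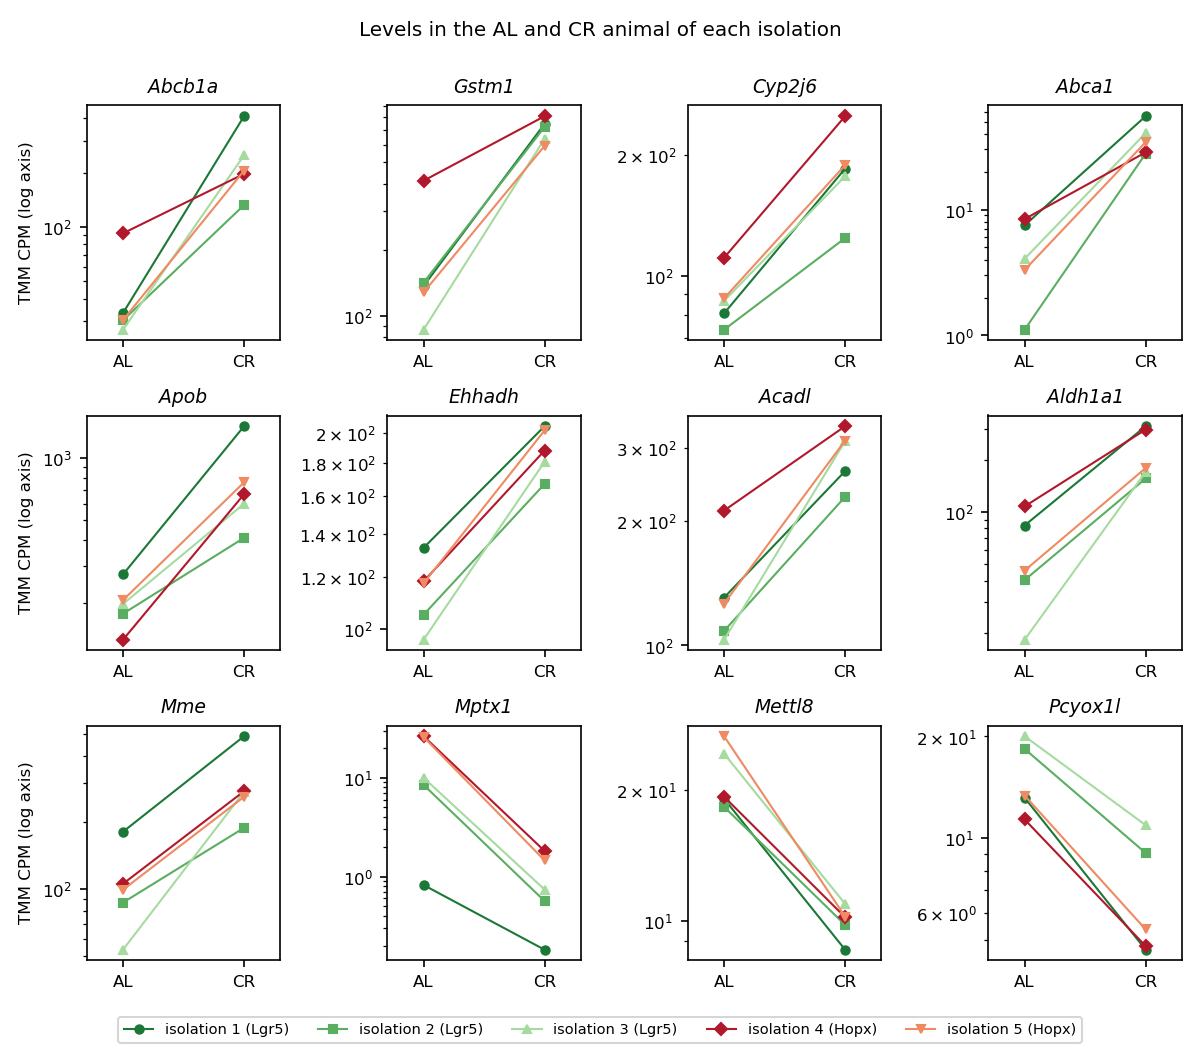
CPM on a log axis (y) in the AL and the CR animal (x) for 12 of the genes that passed, with 1 line per isolation, green for Lgr5 and red for Hopx cells. Lines of 9 genes slope up in all 5 isolations and lines of Mptx1, Mettl8 and Pcyox1l slope down, and Mptx1 starts far lower in isolation 1 than in the others.

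Genes of the brush border, the microvillus surface where digestion ends, and of uptake were also among those that rose. Mme, the peptidase neprilysin, stood at 181, 87.1, 53.4, 106 and 99.5 CPM under AL and at 489, 189, 275, 276 and 261 CPM under CR. Isolation 1 was highest within both diets, and the groups did not overlap. Mme rose by 1.53 (SE 0.185, adjusted p = 0.0393). Mgam, the starch-digesting maltase-glucoamylase, rose by 1.11 (87.4 ± 17.3 to 194 ± 66.7 CPM, adjusted p = 0.0393). Eps8 and Cobl, which shape the actin cores of microvilli, rose by 0.83 (adjusted p = 0.0458) and 0.92 (adjusted p = 0.0458).

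Among transporters, Slc1a1, which takes up glutamate and aspartate, rose by 0.96 (57.7 ± 6.4 to 113 ± 19.3 CPM, adjusted p = 0.0458). Slc30a2, a zinc transporter, rose by 0.98 (48.8 ± 17.3 to 94 ± 23.1 CPM, adjusted p = 0.0439). Mfsd7c and Mfsd7b are the 2 FLVCR membrane transporters. Mfsd7c stood at 3.39, 1.23, 1.22, 3.47 and 1.38 CPM under AL and at 24.6, 12.5, 13.3, 16.8 and 9.04 CPM under CR. It shared with Mptx1 the smallest adjusted p of all genes (2.92, SE 0.245, adjusted p = 0.0220), and its 5 differences lay between 2.13 and 3.01. Mfsd7b rose by 1.33 (19.3 ± 3.64 to 52.3 ± 24.4 CPM, adjusted p = 0.0458). Unc93a, a membrane protein, rose by 1.62 (13.4 ± 8.36 to 37.4 ± 11.7 CPM, adjusted p = 0.0458).

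Of 24 brush border digestion genes, Mgam alone passed, 10 were higher in all 5 isolations and none was lower in all 5 (median 1.06). The disaccharidase Sis differed by 1.18 (adjusted p = 0.0812). Of 19 sugar and amino acid transporters, Slc1a1 alone passed and 12 were higher in all 5 (median 0.78), among them the fructose transporter Slc2a5 at 1.99 (adjusted p = 0.0692). Of 11 metallothionein and zinc transport genes, Slc30a2 alone passed and 6 were higher in all 5 (median 0.62), with Mt2, a metal-binding metallothionein, at 2.11 (adjusted p = 0.0787). None of these transporters or zinc genes was lower in all 5. Over all genes tested, 8.71% were higher and 7.66% lower in all 5.

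Other genes that rose act in signalling, adhesion and transcription. Hnf4g, a nuclear receptor of the enterocyte programme, rose by 0.99 (103 ± 24.5 to 207 ± 56.9 CPM, adjusted p = 0.0458), while its relative Hnf4a differed by 0.06 (adjusted p = 0.880). Efnb2 and Epha1, a ligand and a receptor of the ephrin system, rose by 1.01 and 1.07 (both adjusted p = 0.0393). Lamb3, a chain of the basement membrane protein laminin, rose by 1.24 (adjusted p = 0.0458), and Lmo7, a protein of cell junctions, by 0.73 (adjusted p = 0.0492). Cirbp, a cold-inducible RNA-binding protein, rose by 1.39 (36.5 ± 15 to 92.9 ± 22 CPM, adjusted p = 0.0488). The G protein subunit Gna13 rose by 0.70, the smallest change that passed, with differences of 0.54 to 0.81 in the 5 isolations. Iqgap2, a scaffold protein, rose by 1.11. The remaining genes were Lrrc19, Fbxo34, Tmem236, Slc35e3, Bcas3, Aplp2 and Bmp2k, with changes of 0.72 to 1.18.

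By TPM, which corrects for transcript length, the genes that rose covered a wide range under CR, from means of 670 TPM for Gstm1, 643 for Gstm3 and 269 for Ces2a down to 4.74 for Mfsd7c, 4.14 for Slc16a9 and 3.79 for Abca1. The largest fold changes, those of Abca1 and Mfsd7c, thus belonged to genes of low level, while Gstm1 combined a high level with a large change.

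Only 3 genes fell past the threshold. Mptx1, a mucosal pentraxin, stood at 0.821, 8.47, 10.0, 26.3 and 25.8 CPM under AL and at 0.182, 0.564, 0.737, 1.81 and 1.46 CPM under CR. The AL library of isolation 1 was already within the range of the CR libraries, so the groups overlapped. Mptx1 fell by 3.68 on the log2 scale (SE 0.316, adjusted p = 0.0220), with differences of -0.95 in isolation 1 and -3.08 to -3.75 in the others. Its close relative Mptx2 was at 377 to 3392 CPM over the 10 libraries and did not pass (0.29, adjusted p = 0.778). Reads shared between the 2 genes could move between them. Mptx1 was the 1 member of the Paneth cell list to pass, of 26.

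Mettl8, a mitochondrial tRNA methyltransferase, stood at 19.1, 18.3, 24.3, 19.3 and 26.7 CPM under AL and at 8.59, 9.79, 10.9, 10.2 and 10.2 CPM under CR. The groups were well apart, and the gene fell by 1.10 (SE 0.152, adjusted p = 0.0458). Pcyox1l, related to prenylcysteine oxidase, stood at 13.2, 18.4, 20, 11.4 and 13.4 CPM under AL and at 4.67, 9.03, 10.9, 4.79 and 5.36 CPM under CR. It fell by 1.19 (SE 0.175, adjusted p = 0.0492) with no overlap. The CR and AL libraries did not overlap in 2 of the 3 genes, against 1.38% of all genes tested that were lower without overlap.

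The genes next in line on the lower side did not pass, at adjusted p = 0.0587 to 0.0692. Scd2, a stearoyl-CoA desaturase, was at 131, 115, 87.5, 98.8 and 71.0 CPM under AL and at 42.6, 38.5, 14.2, 16.2 and 44.6 CPM under CR (-1.83). Its relative Scd1 had the opposite sign, at 2.91 (1.13 ± 0.757 to 8.04 ± 5.62 CPM, adjusted p = 0.0676). The chaperone Hsph1 differed by -1.24, the selenoprotein gene Sepn1 by -1.39 and the histone chaperone Nap1l4 by -0.75. The RNA-binding genes Hnrnpc, Sarnp and Fastkd2 differed by -0.65, -0.60 and -0.58.

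Consistency across isolations was also counted without a test. A total of 1380 genes (8.71%) were higher under CR in all 5 isolations and 1214 (7.66%) were lower in all 5, so the sign alone is a weak criterion and the near balance of the 2 counts differs from the 44 to 3 split of the genes that passed. With RLE size factors in place of TMM, genes higher under CR in all 5 isolations numbered 1234 and genes lower under CR in all 5 isolations numbered 1366. At least 2-fold in every isolation, 25 genes were higher (0.158%) and 2 were lower (0.0126%), both of the latter predicted genes. Of the 25, 11 passed the test: Mfsd7c, Abcc2, Retsat, Apob, Aldh1a1, Abca1, Mme, Unc93a, Slc16a9, Abcb1a and Cyp2c66. Among the 14 that did not were the P450 genes above, Acaa1b, Slc2a5 and Mt2, the clock repressor Nr1d1 (1.93, adjusted p = 0.0534) and the clock output factor Dbp (2.92, adjusted p = 0.0598). Aqp3, a water and glycerol channel, and Slc23a1, a vitamin C transporter, were among them too and are named after their values were seen.

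Beyond the lists already described, no member passed in the lists for active stem cells, reserve stem cells, cell cycle, mTORC1, insulin and FOXO, NRF2, glucocorticoid response, sterol synthesis, autophagy, stress or interferon response. Of all genes tested 0.278% passed higher and 0.0189% lower, so lists of this size can hold none by that share alone. Of 23 NRF2 targets 7 (30.4%) were higher and 0 lower in all 5 isolations (median 0.39). Of 26 insulin and FOXO genes 6 (23.1%) were higher and 1 (3.85%) lower in all 5 (median 0.18). The active stem cell list (23 genes, median 0.16) had 1 gene higher and 0 lower in all 5 isolations. The reserve list (17 genes, median -0.09) had 0 of each. Olfm4 differed by 0.16 (adjusted p = 0.776) and Mki67, a proliferation marker, by 1.46 (adjusted p = 0.282). Of 44 mTORC1 genes (median 0.07) 3 were higher (6.82%) and 4 lower (9.09%) in all 5. The shares over all genes tested were close to these, at 8.71% and 7.66%. Of the mTORC1 genes, Mtor was at 0.66 (adjusted p = 0.129) and Rptor at 0.35 (adjusted p = 0.523). This list also holds Pdk1, which in mouse names a pyruvate dehydrogenase kinase (0.60, adjusted p = 0.0598).

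Several lists leaned downward without a gene that passed. Of 40 S phase genes 9 were lower in all 5 isolations and 0 higher (median -0.28), among them the helicase subunit Mcm5 at -0.73 (adjusted p = 0.129). The 40 G2 and M phase genes leaned upward instead, with 2 members higher and 0 lower in all 5 (median 0.28). Of 37 sterol and fatty acid synthesis genes 8 were lower and 1 higher in all 5 (median -0.15). Of 28 tuft cell genes 6 were lower and 0 higher (median -1.01), with list medians of -1.78 in Lgr5 and -0.03 in Hopx cells. Of 32 enteroendocrine genes 5 were lower and 0 higher (median -0.41), with list medians of -0.10 in Lgr5 and -0.77 in Hopx cells. Of 26 immune cell genes 1 (3.85%) was lower and 0 higher (median -0.61), with list medians of 0.11 in Lgr5 and -1.86 in Hopx cells. The enteroendocrine and immune medians were above 0 in isolations 2 and 3 and below 0 in the others. Of 20 genes of stromal and other non-epithelial cells 2 were lower and 1 higher (median -0.38). The median over all genes was 0.01, and 7.66% of them were lower and 8.71% higher in all 5.

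**Figure D3:**
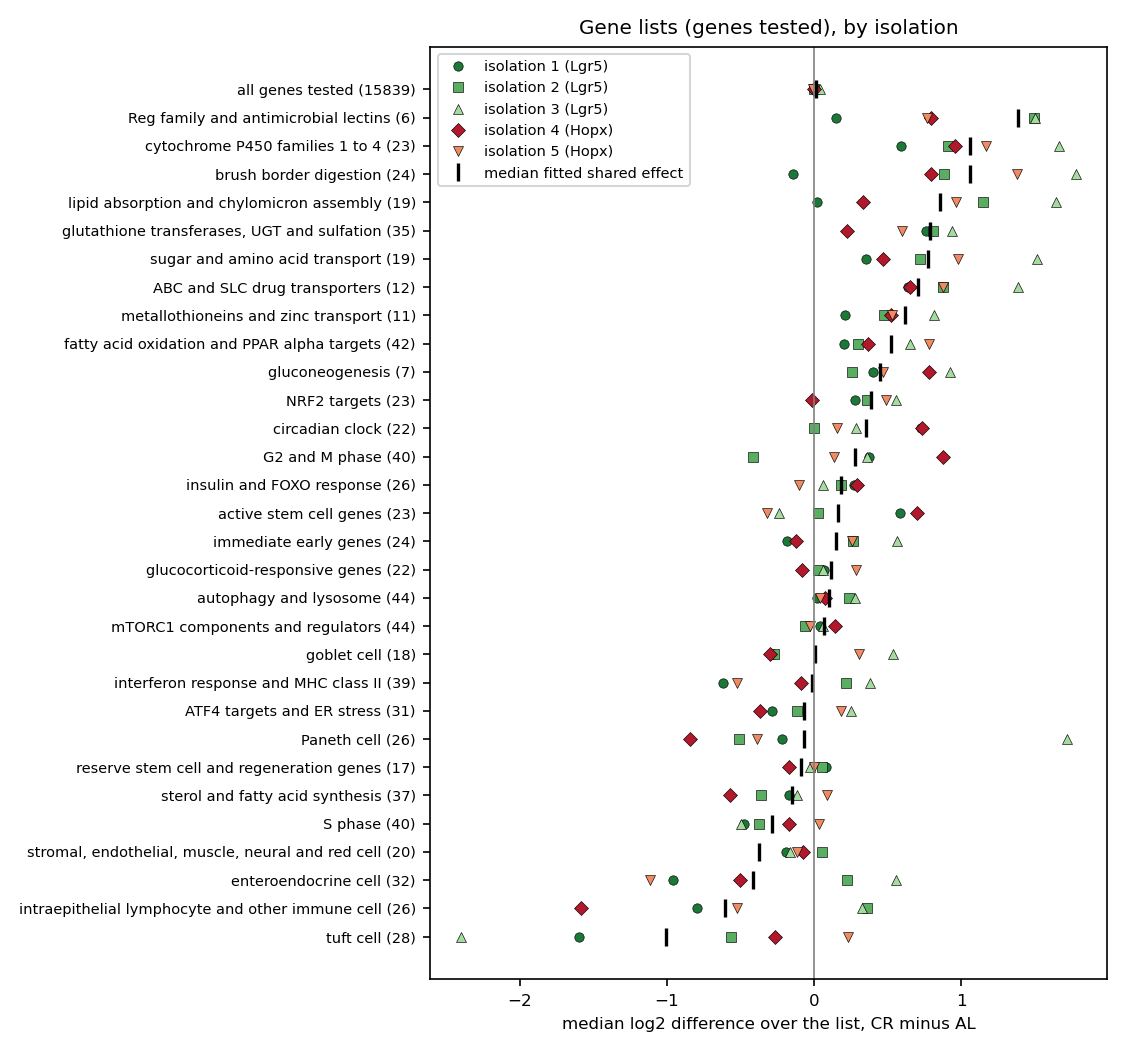
Median log2 difference, CR minus AL, over each gene list (y axis, with the number of genes tested) in each isolation (markers) and the median of the fitted common effects (black bars). The P450 and glutathione transferase lists lie right of 0 in all 5 isolations, while the brush border list is at -0.14 in isolation 1 and the Paneth cell list is spread by isolation 3.

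The level of whole marker lists was also summed in each library. These sums include genes that passed, namely Mgam, Apob, Cyp2c66, Cyp2j6, Por and Mptx1, so they are not separate from the results above. The 24 brush border genes summed to 3897 to 15330 CPM in AL and 11118 to 15355 CPM in CR libraries, with log2 ratios of 0.00, 0.89, 1.68, 0.73 and 1.28 in isolations 1 to 5. The 19 lipid absorption genes had ratios of -0.01, 1.22, 1.89, 0.69 and 1.46. In isolation 1 the brush border and lipid sums were level, and the median of the 44 genes was 1.17; these genes were chosen to be higher there, so nothing is read from that value. The 23 P450 genes had ratios of 0.69, 1.37, 2.55, 1.10 and 2.02.

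Markers of other cell types did not move the same way in all isolations. The sum of 28 tuft cell genes had ratios of -1.73, -0.61, -2.67, -0.17 and 0.26. That of 26 Paneth cell genes had ratios of -0.08, -0.15, 2.02, -0.99 and -0.34, within 20401 to 250222 CPM. RNA of Paneth cell markers was thus present in every library, and the sorted cells cannot be taken as stem cells alone. The sum of 26 immune cell genes had ratios of -0.89, 0.49, 1.15, -2.77 and -0.38, within 43.5 to 367 CPM. The part of enterocyte content in the rise of the 44 genes was not tested.

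**Figure D4:**
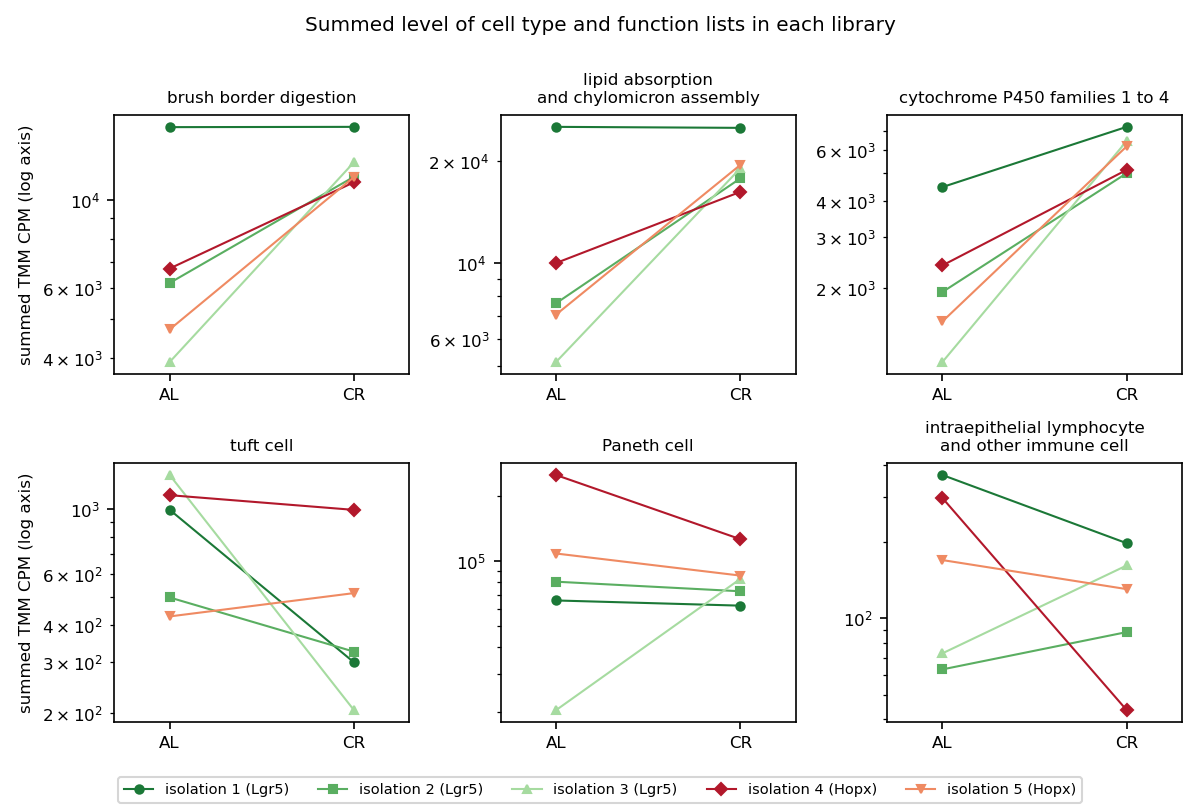
Summed CPM of 6 gene lists on a log axis (y) in the AL and the CR animal (x), with 1 line per isolation. The brush border and lipid sums are level in isolation 1 and higher under CR in isolations 2 to 5, the P450 sum is higher under CR in all 5, and the other 3 sums differ in sign between isolations.

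The common effect was then set beside the effect within each population, from a fit to the same 10 libraries with 1 diet effect per population. Because the genes were chosen on the common effect, their shared direction in both populations is fixed in part by that choice. The 44 genes that rose had a median of 1.18 in Lgr5 and 1.08 in Hopx cells, and the Hopx value was the smaller in 31 and the larger in 13. Abcb1a was at 2.99 in Lgr5 and 1.92 in Hopx cells, Cirbp at 1.68 and 0.97, and Apob at 1.73 and 2.11. The 3 genes that fell had a median of -1.13 in Lgr5 and -1.28 in Hopx cells. In edgeR's test of the diet effect within a population, 0 genes passed in Lgr5 and 0 in Hopx cells. The smallest adjusted p was 0.0748 in Lgr5 and 0.130 in Hopx cells, so these values do not establish a response in either population alone.

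In edgeR's test of the difference between the populations, 0 of 15839 genes passed (0%), against 79 in DESeq2. An unadjusted p under 0.05 was reached by 764 genes in edgeR's test. A share of 0.05 would reach that level if no gene differed, so the 764 alone show no difference. Over the 47 genes the smallest unadjusted p was 0.0443, for Ugcg (adjusted p = 0.946). With 2 Hopx isolations, a missed threshold does not show that the populations respond alike. Genes that failed the common test include several with unlike values in the 2 populations. Tmprss15, the protease that activates trypsinogen, was at 3.03 in Lgr5 and 0.42 in Hopx cells (adjusted p of the difference 0.946). Papss2, which makes the sulfate donor, was at 1.68 and 0.40 (adjusted p = 0.946), and the tuft cell kinase Dclk1 at -2.01 and 0.03 (adjusted p = 0.946).

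**Figure D5:**
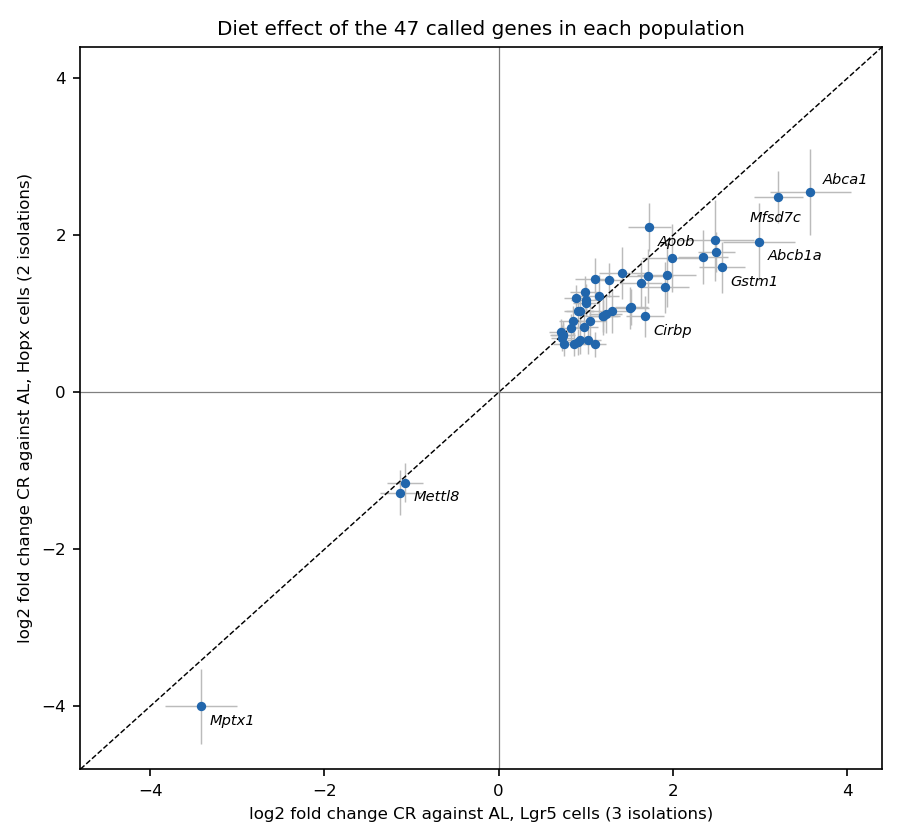
Fitted log2 fold change of CR against AL in Lgr5 cells (x axis) and Hopx cells (y axis) for the 47 genes that passed the common test, with standard errors as bars and a dashed line of equal effects. Of the 44 genes that rose, 31 lie below the line, and Mptx1, Mettl8 and Pcyox1l lie in the lower left.

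The number of genes past the threshold moved with each isolation left out. Without isolation 1, 2, 3, 4 or 5 in turn, 3, 0, 6, 8 and 1 genes passed edgeR's test. Of the 47 genes, 2, 0, 4, 6 and 0 were among them. Without isolation 5, 0 of the 47 had an adjusted p under 0.10. Without isolation 2, 2293 genes still had an unadjusted p under 0.05 and the smallest adjusted p was 0.0896. Without isolation 4, whose animals differed in Y-linked transcripts, the 8 genes were all higher under CR. The direction of the 47 genes is fixed by the rule that chose them, which asks for 1 sign in all 5 isolations, so it is not counted as a sign of stability. Abcc2 and Mfsd7c passed in 8 of the 11 alternatives, Mptx1 in 7 and Abca1 in 6, the highest counts of the 47. Many others, such as Ehhadh, Slc30a2, Ugcg and Pcyox1l, passed in 2 of the 11. These passed in 0 of the fits that left out an isolation. Without the isolation as a block 21 genes passed, 16 of them among the 47.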

How the data were processed

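RNA from 10 sorted libraries was made into cDNA with SMART-Seq v4 and tagmented with Nextera XT, per the labels' protocols; neither kit marks strand or tags single molecules, so antisense partners cannot be told apart and amplified copies count separately. The authors deposited estimated counts and TPM per gene symbol. The submitters' processing notes name kallisto, edgeR and the build GRCh38, a human build although the symbols are mouse. How transcripts were summed to genes is not given in the sources used here. In 27 rows the symbol had become a date; they stayed in the tests unnamed. Another 53 tested rows were identical to another row.

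Estimated counts were rounded, filtered with filterByExpr (minimum count 10, 15839 of 30295 rows kept) and scaled by TMM. The model held a term for each isolation and 1 diet effect (edgeR 4.0.16, R 4.3.3, quasi-likelihood test, two-sided, 4 residual degrees of freedom, biological coefficient of variation 0.370). P-values were adjusted by Benjamini-Hochberg with a threshold of 0.05. A second fit added a diet effect for Hopx cells. Differences per isolation used log2(CPM + 0.5). Alternatives were no block, RLE factors, no filter, DESeq2 1.42.0, limma 3.58.1 on log2(TPM + 1), equal population weight, a pseudocount of 2, and leaving out each isolation. The scripts were tested on simulated data.

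A label of each sample gives its batch or isolation number, and each number is held by 1 AL and 1 CR library of the same reporter, which pairs them. Deviations from group means correlated within pairs at 0.0825, 0.208 and 0.0712 (Lgr5) and 0.0447 (Hopx). Depth was 20.3 to 87.2 M estimated counts.

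The genes and lists were chosen with earlier results of these data known. Named are up to 15 genes in each direction that passed, had the same sign in all 5 isolations and at least 5 CPM in the higher diet, ranked by fold change. A direction with fewer than 10 was filled to 10 by smallest p. Up to 4 genes per list with the smallest p and a set of fixed genes were added. Predicted genes, clones, pseudogenes, mitochondrial genes and date rows were left out. The other genes that passed are given as members of the response, and family relatives for comparison. One gene that passed is counted but not reported here.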

Additional observations from a re-analysis of the deposited data

Results flagged for a closer look

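In 5 of the genes named by rank, list or as fixed genes, 1 isolation stood apart from the other 4. The measure was the difference between the CR and the AL animal, by Dixon's criterion for 5 values (0.71). Chance flags about 1 in 20 genes, and at least 127 genes were named by rank, list or as fixed genes. A count of 5 flags is thus no more than chance alone gives, and the genes below are only described. Genes named outside that rule are not covered. One of these, Aqp3, differed by 4.74 in isolation 3 and by 1.47 to 2.22 in the others. Aldh1a1, which makes retinoic acid, differed by 3.18 in isolation 3, against 1.47 to 1.96 in the others. Mme, the peptidase neprilysin, differed by 2.35 in isolation 3, against 1.11 to 1.43. Mptx1, the pentraxin that fell most, differed by -0.95 in isolation 1, where its AL library was at 0.821 CPM, against 8.47 to 26.3 CPM in the other AL libraries. Zbtb16, a transcription factor of the glucocorticoid list, differed by -0.15 in isolation 5 and by 1.29 to 1.63 in the others, at no more than 7.59 CPM in any library. Mtor, the kinase of mTORC1, differed by -0.0588 in isolation 2 and by 0.74 to 0.91 in the others, and its common effect did not pass (adjusted p = 0.129).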

How the results depend on the processing

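The count of calls, 47 (44 higher, 3 lower), moved with the processing. It was 14 (13 higher, 1 lower) with RLE factors, where the largest adjusted p of the 47 was 0.0544, 219 (194 and 25) with no filter, 1079 (682 and 397) with DESeq2, 85 (78 and 7) with limma on log2(TPM + 1), and 2 (2 and 0) with equal population weight. Leaving out 1 isolation gave 0 to 8 calls (0 to 8 higher, 0 to 1 lower), with 0 to 6 of the 47 among them. With no replicate block, so ignoring the pairing by isolation, 21 genes passed (18 and 3) and the difference between populations gave 1. That difference gave 3 with no filter, 79 with DESeq2, 0 with RLE factors and 0 to 2 without 1 isolation. Genes lower in all 5 isolations numbered 799 on log2(TPM + 1). The named gene Olfm4, which did not pass, ranged from -0.0647 (without isolation 1, adjusted p = 0.915) to 0.316 when 1 isolation was left out. The cause of these shifts was not tested.

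The common effect rests on 5 pairs (3 Lgr5, 2 Hopx) with 4 residual degrees of freedom. Depth was not varied, so its part in the number of calls was not tested. Since the genes were chosen for 1 sign in all 5 isolations, their direction under these alternatives shows nothing about stability.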

Other observations

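Among clock genes, 6 of 22 were higher under CR in all 5 isolations (27.3%, against 8.71% of all genes tested). In all 5, 0 were lower, and none passed the common test. Nr1d1 stood at 41.3, 18.0, 12.9, 53.3 and 29.0 CPM under AL and at 166, 80.1, 118, 123 and 65.4 CPM under CR. The groups did not overlap. Dbp was at 0.999, 0.417, 1.18, 7.44 and 0.86 CPM under AL and at 24.0, 3.75, 12.5, 19.4 and 4.11 CPM under CR, and the groups overlapped. Tef, a relative of Dbp, differed by 1.24 (adjusted p = 0.0722). The time of day of each isolation is not given in the sources used here.

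The Reg lectins, antimicrobial proteins of the epithelium, had 3 of 6 members higher in all 5 isolations (median 1.38). This was 50%, against 8.71% of all genes tested. Reg3a was at 33.9, 25.9, 8.37, 29.4 and 32.9 CPM under AL and at 54.4, 50.2, 33.6, 63.8 and 81.7 CPM under CR (1.21, adjusted p = 0.0570). Reg3b was level in isolation 1 (2859 and 2827 CPM) and higher under CR in the other 4 (1.56, adjusted p = 0.0973). Socs3, which dampens cytokine receptors, was higher under CR in all 5 isolations by 0.60 to 3.49 (fitted 2.17, adjusted p = 0.0694).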
